A study of Drosophila melanogaster with 17 samples.

Results

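The genes of the synaptic vesicle cycle and release machinery were examined as 1 module, made up of the fusion proteins, their priming factors, the calcium sensors, the active zone scaffold, vesicle proteins, endocytic proteins and the neurexin and neuroligin adhesion molecules. Members were the rows whose gene symbol matched a list of 44 names, and all 44 were found among the 16977 genes of each count table. Because stnA and stnB are read from a single dicistronic transcript unit and carried the same coordinates and the same counts in every sample, they were counted once, which left 43 distinct measurements. The members lay on chromosomes 2L (5 members), 2R (5), 3L (7), 3R (15), 4 (3) and X (8) of the BDGP6 build.

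The study used translating ribosome affinity purification (TRAP), in which a tagged ribosomal protein is expressed in chosen cells and its ribosomes are pulled down with their mRNAs, to compare the RNA recovered from labelled neurons with that from control flies. RNA-seq was done on heads, larval axonal sections and legs of Drosophila melanogaster. Every sample, controls included, carried the UAS-Flag-GFP-RpL10 transgene, which encodes the large subunit protein RpL10 with a Flag and a GFP tag.

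Head samples were DIP-γ>Flag-GFP-RpL10 males aged 2 days (3 TRAP samples) and Flag-GFP-RpL10/+ males of that age without a driver (3 controls), and each sample pooled several heads. DIP-γ-GAL4 is a GAL4 insertion in the DIP-gamma gene, active in restricted subsets of neurons that include some motor neurons (MNs). Larval samples were axonal sections dissected from wandering L3 OK371>Flag-GFP-RpL10 larvae (3 TRAP samples) and from Flag-GFP-RpL10/+ larvae of that stage (3 controls), again pooled. OK371-GAL4 is an enhancer trap in VGlut and marks glutamatergic neurons, which in the fly include the MNs. Leg samples, labelled as adult axonal sections, were pooled from DIP-γ>Flag-GFP-RpL10 flies of both sexes aged 2 days (3 TRAP samples) and from Flag-GFP-RpL10/+ flies (2 controls), since 1 further control was left out by the submitters for DNA contamination. The control transgene is described in the study as leaky, so control samples are not empty pulldowns.

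A synapse releases transmitter when a vesicle, held at the active zone by scaffold proteins, is primed and then fused with the membrane by the SNARE proteins nSyb, Syx1A and Snap25. Calcium entering through the channels beneath the scaffold is sensed by a synaptotagmin, and the vesicle membrane is afterwards retrieved by endocytosis through the dynamin shi and its partners. Most of these genes are expressed chiefly in neurons, whereas Hsc70-4, alphaSnap and shi also act in membrane traffic or protein folding in other cells.

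Total counts per sample ranged from 29512310 to 88324615 over the 17 samples, and 3 counts corresponded to at most 0.102 counts for each 1000000 counts of the library (CPM) in heads, 0.0728 CPM in larvae and 0.0455 CPM in legs. These floors cover counting error only. Levels below are CPM scaled by the trimmed mean of M-values (TMM), which corrects for differences in composition between libraries, and values are listed in the order TRAP 1, 2, 3 and control 1, 2, 3. A member was called higher or lower when the edgeR quasi-likelihood test gave a Benjamini-Hochberg adjusted p under 0.05 over all genes tested in that tissue, and log2 fold changes are TRAP minus control with their standard error (SE). The study calls the samples of a group biological replicates, each a separate pool of animals, and p-values measure the spread between these pools. In these bulk samples, fewer cells of a type and less RNA per cell cannot be told apart. The driver's own gene, DIP-gamma, was at 49.5, 43.3 and 10.3 CPM in head TRAP samples and 0.381, 0.297 and 1.496 CPM in head controls (log2 fold change 5.57, SE 0.76, adjusted p = 0.00142), but in legs it was at or under 0.277 CPM in every sample. The endogenous RpL10 gene, to which reads of the transgene could also be assigned, differed by −0.15 in heads (SE 0.22, adjusted p = 0.662), 1.27 in larvae (SE 0.64, adjusted p = 0.779) and 0.69 in legs (SE 0.17, adjusted p = 0.172). VGlut, the OK371 host gene, was at 31.9, 1.08 and 0.3200 CPM in the larval TRAP samples and at 0.0566, 1.69 and 0.271 CPM in larval controls, and the groups overlapped (adjusted p = 0.546).

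In heads, the release machinery rose almost throughout. Of the 43 members, 35 were higher in DIP-γ>Flag-GFP-RpL10 than in Flag-GFP-RpL10/+ (7.23% of all genes tested were) and 0 were lower (9.41% of all genes were). At an unadjusted p under 0.05 in edgeR, 38 members were higher (14.6% of all genes) and 1, Amph, was lower (15.2%). The median log2 fold change of the members was 1.65, against 0.32 for all genes tested. Every TRAP sample exceeded every control for 33 members (16.3% of all genes) and fell below every control for 1 member (18.2% of all genes). All 5 active zone scaffold genes and all 4 vesicle-associated genes were called, as were 8 of 9 calcium sensors, 6 of 8 endocytic genes, 4 of 5 adhesion genes, 4 of 6 fusion genes and 4 of 6 priming genes.

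The head TRAP samples differed in how far they stood above the controls, and they kept the same order for most members. The median member was at 4.66 times the control mean in TRAP 1, at 3.30 times in TRAP 2 and at 1.56 times in TRAP 3, and 39, 34 and 12 members reached at least 2 times that mean. How many of all genes reached it in each sample was not computed. These counts therefore describe the spread between samples only. The median coefficient of variation was 49.6% over the TRAP samples and 13.5% over the controls. The count of 35 fell to 22 without control 1 and to 23 without control 2. The share of all genes called higher also fell, from 7.23% to 4.23% and 5.12%. Of the 35 members, 21 passed without each of the 6 libraries in turn. In a single model of all 3 tissues, which shares 1 dispersion estimate with the much more variable larval samples, 0 members passed and the smallest adjusted p was 0.0645.

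**Figure D1:**
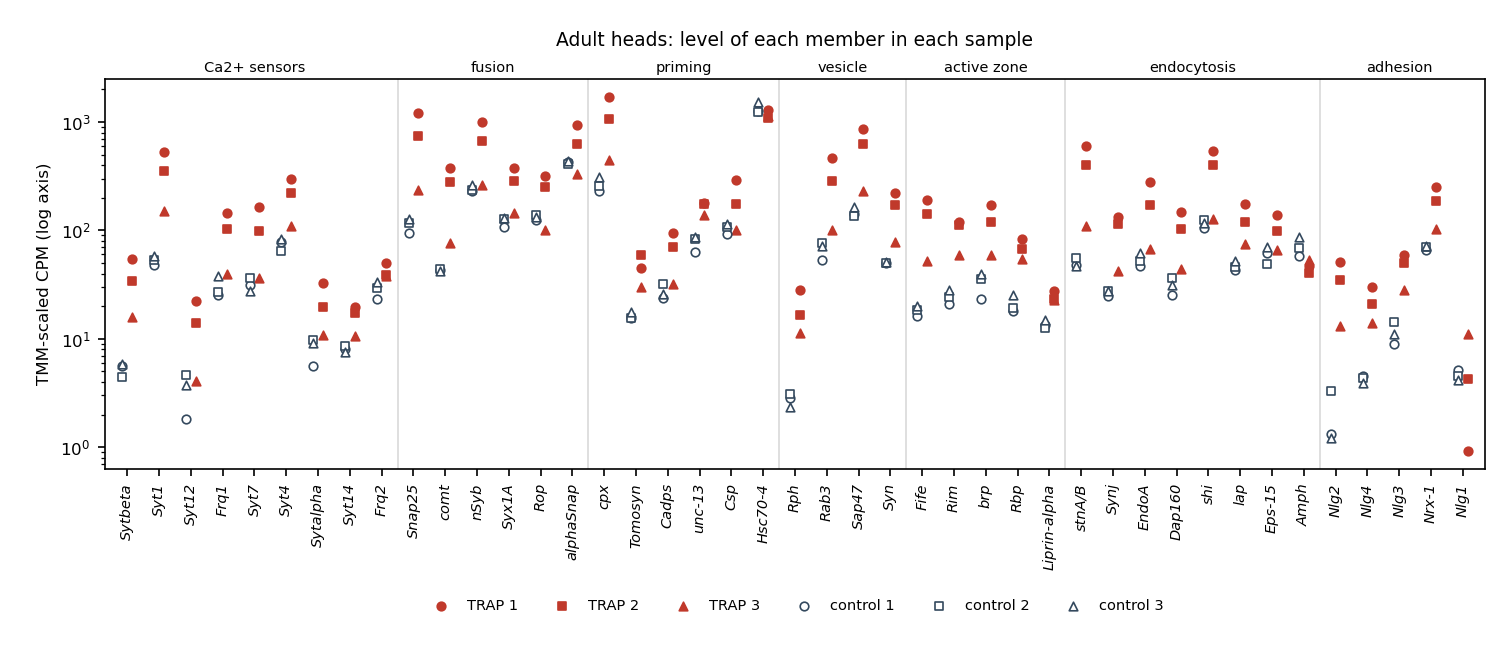
Level of each member in the 6 head samples, in TMM-scaled CPM on a log axis, ordered by role. Filled red symbols are TRAP 1 (circle), 2 (square) and 3 (triangle), and open symbols are the controls. TRAP 1 lies farthest above the controls for most members and TRAP 3 nearest to them, and Amph is the member whose TRAP samples all lie below its controls.

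Among the calcium sensors, Syt1 and Sytbeta rose most. Syt1 (FBgn0004242, chromosome 2L 2772327 to 2799979), the synaptotagmin that triggers fast synchronous release, was at 527, 356 and 151 CPM in TRAP and 47.7, 53.0 and 58.2 CPM in control, with a log2 fold change of 2.70 (SE 0.39, adjusted p = 0.00169). Sytbeta (FBgn0261090, 3L 15014695 to 15064977), a synaptotagmin of less defined function, was at 54.3, 34.3 and 16.04 CPM against 5.59, 4.46 and 5.86 CPM, with a log2 fold change of 2.72 (SE 0.40, adjusted p = 0.00194). The lowest TRAP sample was above the highest control for both, although Sytbeta overlaps 11 annotated genes on its own strand, whose reads the counting could have placed in either gene. Syt4, which acts in retrograde signalling from the postsynaptic side of the neuromuscular junction, was at 299, 222 and 109 CPM against 78.6, 64.2 and 83.8 CPM, with a log2 fold change of 1.48 (SE 0.32, adjusted p = 0.0117). Its groups did not overlap either. Syt7, a sensor with high calcium affinity, was at 163, 99.7 and 36.3 CPM against 31.1, 36.4 and 27.7 CPM (log2 fold change 1.65, SE 0.43, adjusted p = 0.0275). Syt12 was at 22.5, 14.1 and 4.07 CPM against 1.81, 4.67 and 3.76 CPM (1.99, SE 0.58, adjusted p = 0.0424). For these 2 genes TRAP 3 was within the control range, so the call rests on TRAP 1 and TRAP 2. Syt14 and Sytalpha, less studied members of the family, rose by 0.96 (SE 0.27, adjusted p = 0.0384) and 1.37 (SE 0.39, adjusted p = 0.0394) on the log2 scale.

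The frequenins Frq1 and Frq2, calcium-binding proteins that modulate release at fly terminals, are near-identical neighbours on the X chromosome (18155369 to 18174744 and 18177612 to 18204407), so the counting could have moved reads between them. Frq1 was at 146, 103 and 40.0 CPM in TRAP and 25.2, 27.1 and 37.7 CPM in control (log2 fold change 1.68, SE 0.40, adjusted p = 0.0175). Frq2 was at 50.4, 38.8 and 38.1 CPM against 23.2, 29.5 and 33.1 CPM (0.57, SE 0.21, adjusted p = 0.0934). All 3 TRAP samples lay above the controls for both genes, but Frq2 did not pass the test.

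The fusion genes divided. Snap25 (FBgn0011288, 3L 24074180 to 24299205), the neuronal plasma membrane SNARE of the SNAP-25 type, was at 1222, 736 and 238 CPM in TRAP and 95.02, 116 and 128 CPM in control, with a log2 fold change of 2.69 (SE 0.48, adjusted p = 0.00471). The NSF ATPase comt, which takes spent SNARE complexes apart, was at 373, 279.8 and 76.3 CPM against 43.2, 44.3 and 41.9 CPM (2.49, SE 0.46, adjusted p = 0.00558). Both were higher in every TRAP sample than in any control. The vesicle SNARE nSyb was at 1004, 661 and 263 CPM against 229, 235 and 265 CPM (1.40, SE 0.39, adjusted p = 0.0355), with TRAP 3 inside the control range. Syx1A, the syntaxin of the plasma membrane, was at 376, 283 and 145 CPM against 107, 128 and 131 CPM (1.13, SE 0.30, adjusted p = 0.0297), and its groups did not overlap. The remaining pair did not pass. Rop, the Sec1/Munc18 protein that binds syntaxin, was at 318, 253 and 100.1 CPM against 124, 140.0 and 133 CPM (0.76, SE 0.35, adjusted p = 0.176). The NSF adaptor alphaSnap was at 935, 633 and 332 CPM against 424, 414 and 440.4 CPM (0.57, SE 0.32, adjusted p = 0.262). In both cases TRAP 3 was the lowest of the 6 samples.

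Of the priming and fusion control genes, the complexin gene cpx, whose product clamps and assists SNARE complexes, rose most. It was at 1706, 1062 and 450.1 CPM in TRAP and 233, 258 and 309 CPM in control (log2 fold change 2.01, SE 0.40, adjusted p = 0.00795). The priming factor unc-13 was at 179, 175 and 138 CPM against 62.7, 83.5 and 86.6 CPM (1.08, SE 0.19, adjusted p = 0.00483), so its change was smaller but closer between TRAP samples. Tomosyn, an inhibitor of priming that competes for syntaxin, was at 45.5, 59.4 and 29.8 CPM against 15.4, 15.5 and 17.8 CPM (1.47, SE 0.26, adjusted p = 0.00431), and TRAP 2 rather than TRAP 1 was its highest sample. Cadps, known for its part in dense core vesicle release, rose by 1.27 on the log2 scale (SE 0.34, adjusted p = 0.0303). The vesicle chaperone Csp was at 289.5, 173 and 100.1 CPM against 92.4, 107 and 114 CPM (0.84, SE 0.33, adjusted p = 0.112). Its partner Hsc70-4, a chaperone of all cells, was at 1280.2, 1082 and 1143 CPM against 1266, 1235 and 1542 CPM (−0.21, SE 0.18, adjusted p = 0.486, and 0.27 when libraries were scaled by their totals only). Neither passed the test, and the Hsc70-4 groups overlapped.

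All 4 vesicle-associated genes rose and none of their groups overlapped. Synapsin (Syn), which tethers vesicles in the reserve pool, was at 223, 173 and 78.8 CPM in TRAP and 49.8, 49.6 and 50.9 CPM in control (log2 fold change 1.66, SE 0.32, adjusted p = 0.00691). Rab3, the vesicle GTPase that positions release sites, was at 468, 284 and 101 CPM against 53.7, 75.7 and 72.3 CPM (2.08, SE 0.45, adjusted p = 0.0113). Rabphilin (Rph), an effector of that GTPase, was far less abundant, at 28.1, 16.7 and 11.2 CPM against 2.86, 3.12 and 2.36 CPM (2.75, SE 0.36, adjusted p = 0.00120). Sap47, a synapse-associated protein, was at 868, 624 and 231 CPM against 142, 137 and 166 CPM (1.95, SE 0.40, adjusted p = 0.00835).

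The 5 scaffold genes likewise separated completely in heads. Fife (FBgn0264606, 3L 2655415 to 2711690), a Piccolo and RIM relative that docks vesicles, rose most, at 191, 141 and 51.9 CPM in TRAP and 16.4, 18.4 and 20.02 CPM in control (log2 fold change 2.80, SE 0.40, adjusted p = 0.00172). Rim, which links vesicles to calcium channels, was at 119.6, 113 and 59.3 CPM against 20.7, 24.4 and 28.5 CPM (1.98, SE 0.28, adjusted p = 0.00157). The RIM-binding protein gene Rbp was at 83.9, 68.1 and 54.0 CPM against 18.1, 19.3 and 25.1 CPM (1.72, SE 0.22, adjusted p = 0.00116). Rim and Rbp varied less between TRAP samples than Fife did. Bruchpilot (brp), the ELKS relative that builds the T-bar of the active zone, was at 170.5, 118 and 59.2 CPM against 23.1, 35.7 and 39.9 CPM (1.82, SE 0.36, adjusted p = 0.00762). Liprin-alpha, an organiser of active zone assembly, changed least, at 27.4, 23.2 and 22.7 CPM against 13.5, 12.5 and 14.96 CPM (0.84, SE 0.20, adjusted p = 0.0175).

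Among the endocytic genes the stoned locus changed most. The stnA and stnB unit (X 22980722 to 23004648), whose products sort synaptotagmin during retrieval, was at 598, 405 and 109.8 CPM in TRAP and 48.2, 56.1 and 47.1 CPM in control (log2 fold change 2.88, SE 0.49, adjusted p = 0.00393). The phosphoinositide phosphatase Synj was at 133, 114 and 42.1 CPM against 25.01, 27.6 and 27.8 CPM (1.84, SE 0.36, adjusted p = 0.00698). The scaffold Dap160 was at 148, 103 and 43.8 CPM against 25.4, 36.5 and 31.7 CPM (1.65, SE 0.37, adjusted p = 0.0142). Dynamin (shi), the GTPase that severs vesicles from the membrane, the membrane-bending protein EndoA and the clathrin adaptor lap rose by 1.63 (SE 0.42, adjusted p = 0.0244), 1.67 (SE 0.41, adjusted p = 0.0211) and 1.39 (SE 0.28, adjusted p = 0.00835). None of these 6 overlapped between groups. The endocytic adaptor Eps-15 was at 139.9, 98.9 and 66.6 CPM against 61.2, 48.5 and 69.7 CPM (0.77, SE 0.27, adjusted p = 0.0824), with TRAP 3 inside the control range.

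Amphiphysin (Amph), grouped here as an endocytic gene but known in the fly for organising the transverse tubules of muscle, ran the other way. It was at 47.2, 40.5 and 53.4 CPM in TRAP and 58.5, 68.4 and 86.8 CPM in control (log2 fold change −0.60, SE 0.20, adjusted p = 0.0729). Each TRAP sample was below each control. When each library was left out in turn, the edgeR adjusted p ran from 0.0206 (without TRAP 3) to 0.295. It was under 0.05 in 1 of these 6 fits. Amph also lay below every control in the other tissues, at 13.7, 5.83 and 9.85 CPM against 19.3, 27.3 and 19.0 CPM in larvae (−1.16, SE 0.49, adjusted p = 0.702) and at 48.2, 66.6 and 59.5 CPM against 75.2 and 74.0 CPM in legs (−0.36, SE 0.18, adjusted p = 0.599). Of 16 muscle markers, 9 were lower in head TRAP samples, with summed levels of 13479 to 23340 CPM against 37925 to 56647 CPM in controls. In larvae and legs 0 of the 16 were called in edgeR and 1 and 9 were lower at an unadjusted p under 0.05, with sums of 13591 to 28743 against 19442 to 76338 CPM and of 22509 to 28582 against 37322 to 38256 CPM. No muscle marker was at 0 in every sample of a tissue, and the part of muscle RNA in the Amph values was not tested.

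The adhesion genes held the largest change of the module. Neuroligin 2 (Nlg2, FBgn0031866, 2L 6874900 to 6906656), a neuroligin that acts on both sides of the larval neuromuscular junction, was at 51.4, 34.6 and 13.2 CPM in TRAP and 1.33, 3.30 and 1.21 CPM in control (log2 fold change 4.08, SE 0.56, adjusted p = 0.00153). Neuroligin 4 (Nlg4), known for its role in sleep and in inhibitory transmission, was at 29.9, 21.1 and 14.1 CPM against 4.54, 4.31 and 3.88 CPM (2.35, SE 0.30, adjusted p = 0.00116). Neuroligin 3 (Nlg3) was at 59.0, 49.7 and 27.9 CPM against 8.87, 14.4 and 11.1 CPM (1.99, SE 0.30, adjusted p = 0.00231). The presynaptic partner of the neuroligins, neurexin (Nrx-1), was at 253, 187 and 104 CPM against 66.4, 70.3 and 71.8 CPM (1.38, SE 0.29, adjusted p = 0.00912). None of these groups overlapped. Neuroligin 1 (Nlg1), which acts in the postsynaptic muscle at the larval neuromuscular junction, was at 0.923, 4.23 and 11.1 CPM against 5.15, 4.55 and 4.17 CPM (0.23, SE 0.68, adjusted p = 0.840). Its 3 TRAP samples ran in the opposite order to those of the other neuroligins, with the lowest value in TRAP 1 and the highest in TRAP 3.

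**Figure D2:**
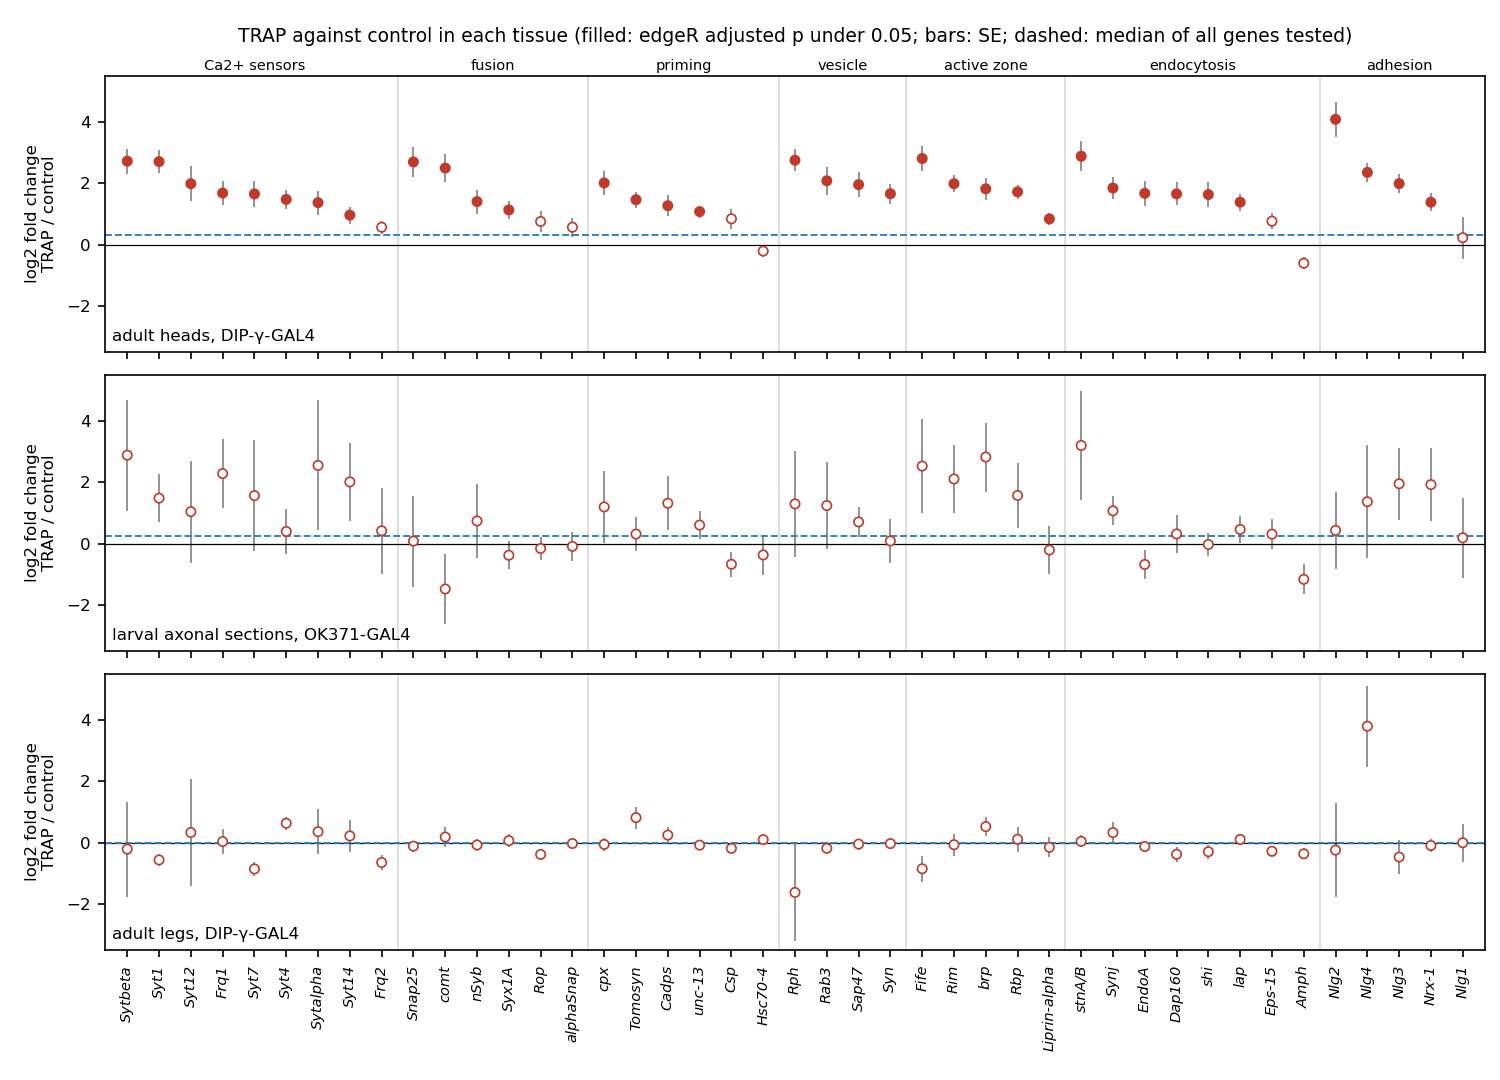
Log2 fold change of each member, TRAP minus control, in heads, larval axonal sections and legs, with bars of 1 SE. Filled points passed an adjusted p of 0.05 and the dashed line is the median of all genes tested (0.32, 0.25 and −0.01). In heads 35 members are filled, in larvae and legs 0.

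Levels were also divided by the length of annotated exon. Whether intron reads were counted is not known, which limits this scale for genes with long introns such as Snap25. Per kilobase of exon, Hsc70-4 stood highest in both head groups (430.2 CPM per kb in TRAP and 496 in control). In the TRAP samples Snap25 came next at 321 CPM per kb, ahead of alphaSnap at 306 and nSyb at 158. In the controls alphaSnap came next at 206 CPM per kb, followed by nSyb at 59.7, Rop at 50.2 and Snap25 at 49.6. Nlg1 was lowest in TRAP, at 0.903 CPM per kb.

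The module was set beside other neuronal transcripts to see whether it moved by more than they did, a comparison chosen after the values had been seen. Of 12 pan-neuronal and transmitter markers, 9 rose in heads, and their summed level was 5672, 4020 and 1762 CPM in TRAP and 1020.5, 1234 and 1363 CPM in control. The 40 members without the broadly expressed Hsc70-4, shi and alphaSnap summed to 11018, 7566 and 3287 CPM against 1988, 2204 and 2409.7 CPM. Both sums thus had the same order of samples. The ratio of this sum of 40 members to the sum of the 12 markers was 1.94, 1.88 and 1.87 in TRAP against 1.95, 1.79 and 1.77 in control, and the groups overlapped. When ChAT, VAChT, VGlut and Gad1, which mark a transmitter rather than all neurons, were left out of the markers, the ratio was 3.10, 2.996 and 2.36 against 2.24, 2.02 and 1.95, and the groups did not overlap. Gad1, which makes GABA, had risen by 8.57 on the log2 scale in heads, so the reading depends on which markers are used.

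Single members were also expressed per unit of that 12-marker sum. In heads 12 were higher in every TRAP sample than in every control (3.87% of all genes), 10 were lower (45.0%) and 21 overlapped, with a median of 0.974 times the control ratio, against 0.473 times for all genes. Per unit of the 8 markers, 18 were higher (5.25% of all genes), 5 lower (41.1%) and 20 overlapped. On the 12-marker scale Nlg2 stood at 5.17 times, Fife at 2.15, stnA at 2.11 and Syt1 at 2.02 times. Amph at 0.276 times and Hsc70-4 at 0.339 times stood lowest. The vesicle SNARE nSyb was at 0.805 times. In legs 8 members were above both controls on the 12-marker scale (18.9% of all genes), 6 below (7.74%) and 29 overlapping, and on the 8-marker scale 9 above (19.6%), 6 below (7.56%) and 28 overlapping.

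**Figure D3:**
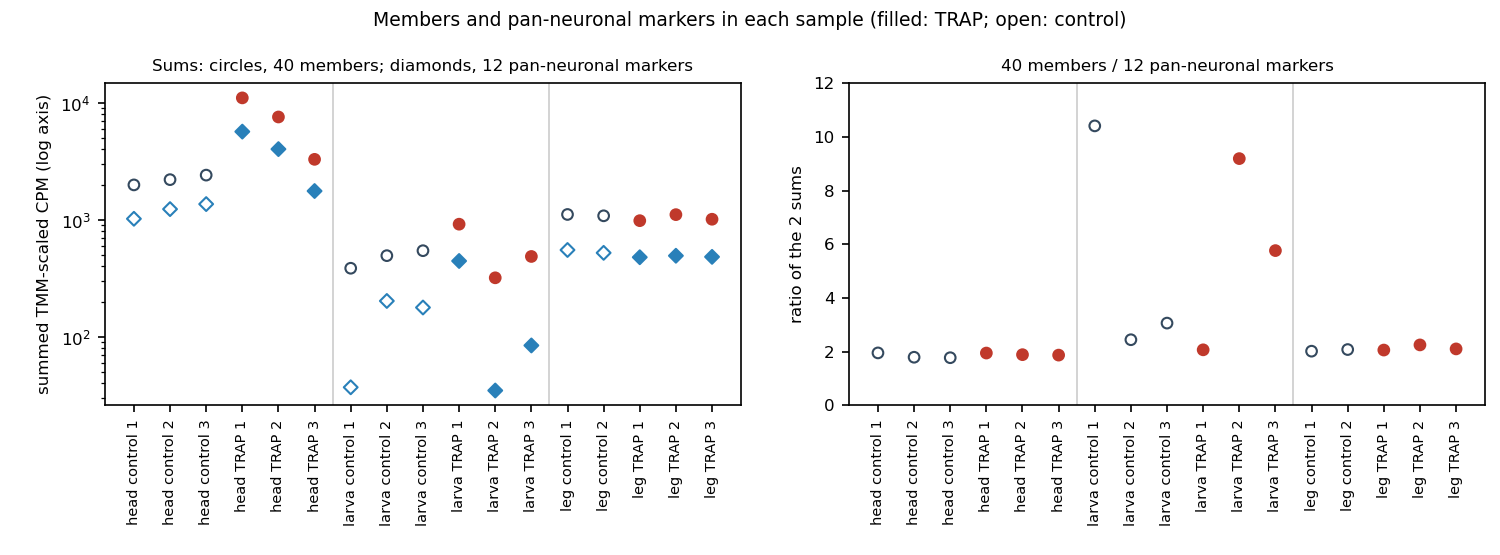
Left, summed TMM-scaled CPM of 40 members (circles) and of 12 pan-neuronal markers (diamonds) in each sample, on a log axis. Right, the ratio of these sums per sample on a linear axis from 0. The head TRAP ratios (1.87 to 1.94) lie within the head control range (1.77 to 1.95), leg ratios run from 2.01 to 2.25, and larval ratios spread from 2.06 to 10.4.

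Several release proteins have a broadly expressed relative that serves other membrane fusion, and the balance of each pair was computed from the counts, again after the values had been seen. The count ratio of nSyb to Syb, the synaptobrevin of other tissues, was 5.16, 3.14 and 1.121 in head TRAP samples and 0.503, 0.572 and 0.681 in head controls. Snap25 to Snap24 was 14.3, 10.2 and 3.65 against 1.40, 1.47 and 1.55. The NSF pair comt to Nsf2 was 20.9, 15.1 and 4.85 against 2.06, 1.88 and 2.23. Syx1A to Syx4 was 97.5, 92.8 and 29.6 against 15.5, 15.2 and 14.3. Every TRAP sample was thus above every control for all 4 pairs, including TRAP 3, in which nSyb itself was within the control range. Syb alone had fallen by 0.97 on the log2 scale (SE 0.17, adjusted p = 0.00406). In legs, nSyb to Syb was 0.262, 0.292 and 0.237 in TRAP against 0.334 and 0.235 in control, and the groups overlapped. Leg Snap25 to Snap24 was 0.938, 1.10 and 0.915 against 1.52 and 1.20, below both controls. The other leg pairs overlapped, Syx1A to Syx4 at 9.82, 8.59 and 6.46 against 8.23 and 10.7, and comt to Nsf2 at 2.74, 1.11 and 2.65 against 1.67 and 1.79. In larvae the groups overlapped for all 4 pairs.

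The pathway beyond the module was covered by 3 lists. Of 20 further release genes, 12 rose and 0 fell in heads (median log2 fold change 1.13), among them the vesicle GTPase Rab27 (4.90, SE 0.67, adjusted p = 0.00152), the scaffold CASK (2.89, SE 0.45, adjusted p = 0.00264) and the vesicle protein synaptogyrin, Syngr (2.53, SE 0.51, adjusted p = 0.00844). Of the 20, 1 was lower at an unadjusted p under 0.05. Of 15 further endocytic genes, nwk (2.13, SE 0.42, adjusted p = 0.00746), which restrains synaptic growth, and the kinase Nak (0.69, SE 0.20, adjusted p = 0.0403) rose, while the clathrin light chain Clc fell by 0.74 (SE 0.19, adjusted p = 0.0265). The median of that list was 0.25, near the 0.32 of all genes. Of 22 tested SNAREs and SNARE adaptors of other compartments, 2 rose (gammaSnap2 by 1.74 and the Golgi syntaxin Syx6 by 1.46) and 4 fell, with a median of −0.37. In larvae and legs edgeR called 0 genes of these 3 lists. At an unadjusted p under 0.05 in edgeR, the release list held 1 higher and 2 lower genes in larvae and 3 lower in legs, the SNARE list 1 lower in larvae, and the endocytic list 1 higher in legs.

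Markers of other cells moved with the head comparison too. Of 13 photoreceptor markers, 11 were higher in TRAP, with sums of 153 to 437 CPM against 45.8 to 67.0 CPM, and none was at 0 in every sample. The 10 glial markers were divided, with 5 log2 fold changes above 0 and 5 below, from −0.95 to 3.71 (median −0.03). The edgeR test called 2 lower and 0 higher, and at an unadjusted p under 0.05 it had 3 lower and 1 higher. Their sums were 1203 to 1398 CPM in TRAP against 1788 to 2178 CPM in control. Photoreceptors also release transmitter, and their part in the values of the module was not tested.

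In larval axonal sections no member passed the test. The edgeR fit called 0 of 43 higher (0.234% of all genes) and 0 lower (0.012% of all genes), with a smallest adjusted p of 0.669, and at an unadjusted p under 0.05 brp and Synj were higher (4.13% of all genes) and Amph lower (2.58%). DESeq2 called 0 as well, and the single model of all 3 tissues called Amph lower (adjusted p = 0.0383). The median log2 fold change was 0.71, against 0.25 for all genes. Every TRAP sample exceeded every control only for Cadps (4.53% of all genes) and fell below every control only for Amph and EndoA (5.76% of all genes).

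The larval TRAP samples did not resemble each other. In TRAP 1, 32 members lay above the highest control and the median member was at 2.98 times the control mean. In TRAP 2, 20 members lay below the lowest control and 4 above the highest, with a median of 0.295 times. In TRAP 3 the median was 1.04 times. The share of all genes in the same positions was not computed, so whether these counts are particular to the members is not known. The libraries differed over all genes too, with 782, 6086 and 3163 genes at 0 counts in TRAP and 5504, 1191 and 1225 in control. Their TMM factors were 1.34, 0.515 and 0.986 in TRAP and 0.986, 1.14 and 1.31 in control. The T-bar gene brp was at 40.0, 0.558 and 8.81 CPM in TRAP and 0.0990, 3.28 and 3.602 CPM in control (log2 fold change 2.82, SE 1.122, adjusted p = 0.669). Synj was at 37.5, 12.9 and 33.4 CPM against 12.1, 12.97 and 14.8 CPM (1.07, SE 0.47, adjusted p = 0.722). Both had TRAP 2 within the control range. The calcium sensor Syt1 was at 58.3, 1.78 and 8.42 CPM against 7.60, 8.86 and 8.08 CPM, so that its lowest and its highest value were both in TRAP. Snap25 was at 9.06, 0.105 and 1.33 CPM against 0.0141, 5.85 and 4.04 CPM, where the lowest control held 1 count. In control 1, 7 members had 3 counts or fewer, as did 8 members in TRAP 2.

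**Figure D4:**
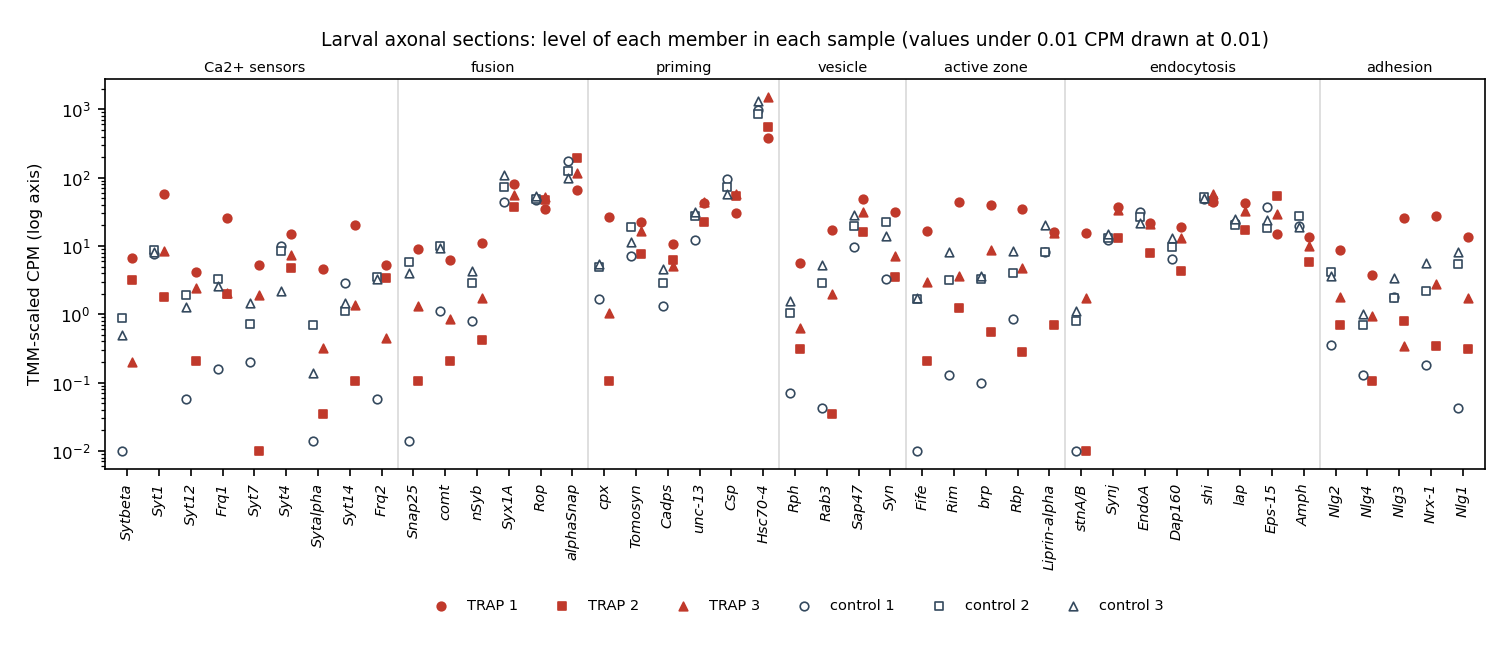
Level of each member in the 6 larval samples, in TMM-scaled CPM on a log axis, with values under 0.01 CPM drawn at 0.01. Filled symbols are TRAP 1, 2 and 3 and open symbols the controls. TRAP 1 is the highest sample for most members, while TRAP 2 and control 1 hold most of the lowest values.

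Without larval TRAP 1 the median of the members became −0.25, against −0.26 for all genes, and 16 members had a log2 fold change above 0. The positive median of the members in larvae therefore rests on that sample, and without it they moved as all genes did. Without TRAP 2 the median of the members was 0.84, against 0.10 for all genes. The 12 pan-neuronal markers followed the same pattern, with sums of 445, 34.8 and 84.4 CPM in TRAP and 37.0, 202 and 178 CPM in control, and 0 of the 12 were called by edgeR (4 were higher at an unadjusted p under 0.05). Salivary gland markers moved with the comparison instead, although the methods state that the glands were removed at dissection. Of 9, 8 were higher in TRAP, and they summed to 3504, 37929 and 5649 CPM against 75.5, 191 and 94.1 CPM, with TRAP 2 the highest sample. Of 12 fat body markers edgeR called 0 (2 were higher and 4 lower at an unadjusted p under 0.05), and 5 lay below every control, and they summed to 786 to 979 CPM in TRAP against 1756 to 2105 CPM in control. No marker of these lists was at 0 in every larval sample, and their part in the members' values was not tested.

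In legs, where DIP-γ-GAL4 was again the driver, no member passed the test between genotypes. The edgeR fit called 0 of 43 members higher (0.113% of all genes) and 0 lower (0.12% of all genes), with a smallest adjusted p of 0.204, and DESeq2 called 2, Syt7 lower (adjusted p = 0.0131) and Nlg4 higher (adjusted p = 0.0342). DESeq2 called 2.40% of all genes higher and 1.65% lower in legs, so these 2 calls are near the background. The median log2 fold change was −0.06, against −0.01 for all genes. Every TRAP sample exceeded both controls for 2 members (11.8% of all genes) and lay below both for 10 (12.8% of all genes). At an unadjusted p under 0.05, Syt4, Tomosyn and Nlg4 were higher (4.68% of all genes) and Syt1, Syt7, Frq2 and Rop lower (4.41%).

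The leg values were close between samples. The priming factor unc-13 was at 34.7, 34.7 and 35.2 CPM in TRAP and 37.7 and 35.8 CPM in control (log2 fold change −0.08, SE 0.16). Synapsin (Syn) was at 34.4, 26.1 and 34.5 CPM against 32.5 and 32.1 CPM, and Sap47 at 62.8, 80.7 and 62.3 CPM against 76.3 and 65.2 CPM. These genes had all risen in heads. In legs Syn and Sap47 overlapped between groups, and the unc-13 TRAP samples lay just below both controls. Syt1 was at 15.4, 15.3 and 14.4 CPM against 21.7 and 22.5 CPM (−0.56, SE 0.18, adjusted p = 0.327), and Syt7 at 7.80, 9.16 and 9.34 CPM against 14.8 and 16.8 CPM (−0.85, SE 0.23, adjusted p = 0.204). Both lay below the controls in every TRAP sample. Syt4 was the reverse, at 54.6, 40.3 and 62.7 CPM against 33.1 and 34.6 CPM (0.63, SE 0.21, adjusted p = 0.330). Tomosyn was at 9.52, 8.48 and 6.67 CPM against 5.73 and 3.61 CPM (0.82, SE 0.35, adjusted p = 0.534). These were the 2 members above both controls.

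The widest leg value belonged to Nlg4, at 3.65, 0.666 and 16.5 CPM against 0.885 and 0.119 CPM (log2 fold change 3.79, SE 1.32, adjusted p = 0.370). It was carried by TRAP 3 in part, since the log2 fold change was 2.10 without that sample, and TRAP 2 was within the control range. Leg TRAP 3 also stood apart in the yolk protein gene Yp1, which was at 14.97 CPM there and at 1080 CPM or more in each of the others. Sytbeta had 0 counts in TRAP 3, and Rph had 2 counts in TRAP 2. The 12 pan-neuronal markers summed to 479 to 493 CPM in leg TRAP samples and to 522 to 552 CPM in leg controls, and 0 of them were called by edgeR (2 were higher and 1 lower at an unadjusted p under 0.05).

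Heads and legs shared the driver, and whether the TRAP effect differed between them was tested as the interaction of genotype and tissue. The effect was larger in heads for 17 of the 43 members (2.54% of all genes) and smaller for 0 (4.29% of all genes), and DESeq2 called 31 larger (6.64% of all genes) and 0 smaller (5.69%). At an unadjusted p under 0.05 in edgeR, 32 were larger (10.7% of all genes) and 0 smaller (12.2%). The median difference was 1.47 on the log2 scale, against 0.14 for all genes. A larger effect in heads was not particular to the module. Of the 20 further release genes, 8 were larger and 0 smaller in edgeR (median difference 1.22). Of the 15 further endocytic genes 1 was larger and 0 smaller, and of the 22 other SNAREs and adaptors 0 were larger and 1 smaller. Among the members, all 4 vesicle-associated genes passed, as did 3 of 5 scaffold genes, 3 of 5 adhesion genes, 2 of 9 calcium sensors, 2 of 8 endocytic genes, 2 of 6 priming genes and 1 of 6 fusion genes. Fife (3.61, SE 0.54, adjusted p = 0.00992) and Syt1 (3.23, SE 0.47, adjusted p = 0.00901) had the smallest adjusted p, and Rph (4.35, SE 1.13, adjusted p = 0.0389) and Nlg2 (4.31, SE 0.90, adjusted p = 0.0174) the largest differences. Fife went from 2.80 in heads to −0.85 in legs, where it was at 4.11, 3.44 and 2.26 CPM against 5.65 and 6.11 CPM.

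The leg values behind the other differences were mostly of overlapping groups. Snap25 was at 54.9, 70.7 and 54.5 CPM in leg TRAP samples and 66.8 and 62.7 CPM in leg controls (log2 fold change in legs −0.11, difference between tissues 2.77). The complexin gene cpx was at 64.2, 110.0 and 97.1 CPM against 94.1 and 93.6 CPM (−0.05, difference 2.03). Both had the control values inside the TRAP range. Rab3 was at 22.2, 28.8 and 20.2 CPM against 26.7 and 27.1 CPM (−0.18, difference 2.23), and the scaffold gene Rim at 10.7, 13.3 and 5.43 CPM against 9.52 and 10.99 CPM (−0.06, difference 2.01). Its partner Rbp was at 4.21, 6.13 and 7.68 CPM against 4.15 and 6.96 CPM (0.11, difference 1.57). These 3 overlapped as well. The stoned unit, stnA and stnB, was at 19.2, 15.9 and 15.9 CPM against 16.5 and 16.4 CPM (0.04, difference 2.80). Dap160 was at 13.1, 14.1 and 9.10 CPM against 15.4 and 15.9 CPM (−0.38, difference 2.00), and it was one of the 10 members below both leg controls. Neurexin (Nrx-1) was at 25.8, 25.3 and 35.0 CPM against 33.1 and 28.0 CPM (−0.09, difference 1.44). Among its partners, Nlg3 was at 1.48, 3.22 and 3.21 CPM against 3.04 and 4.24 CPM (−0.47, difference 2.42). Nlg2, the gene that had changed most in heads, was at 0.661, 0.258 and 0.229 CPM in leg TRAP and 0.224 and 0.680 CPM in leg control (−0.24, difference 4.31), and Rph at 0.738, 0.0272 and 0.127 CPM against 0.586 and 1.24 CPM (−1.62, difference 4.35, with 2 counts in TRAP 2). These last genes overlapped between leg groups, and Nlg2 and Rph were the lowest of the 17 in legs.

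**Figure D5:**
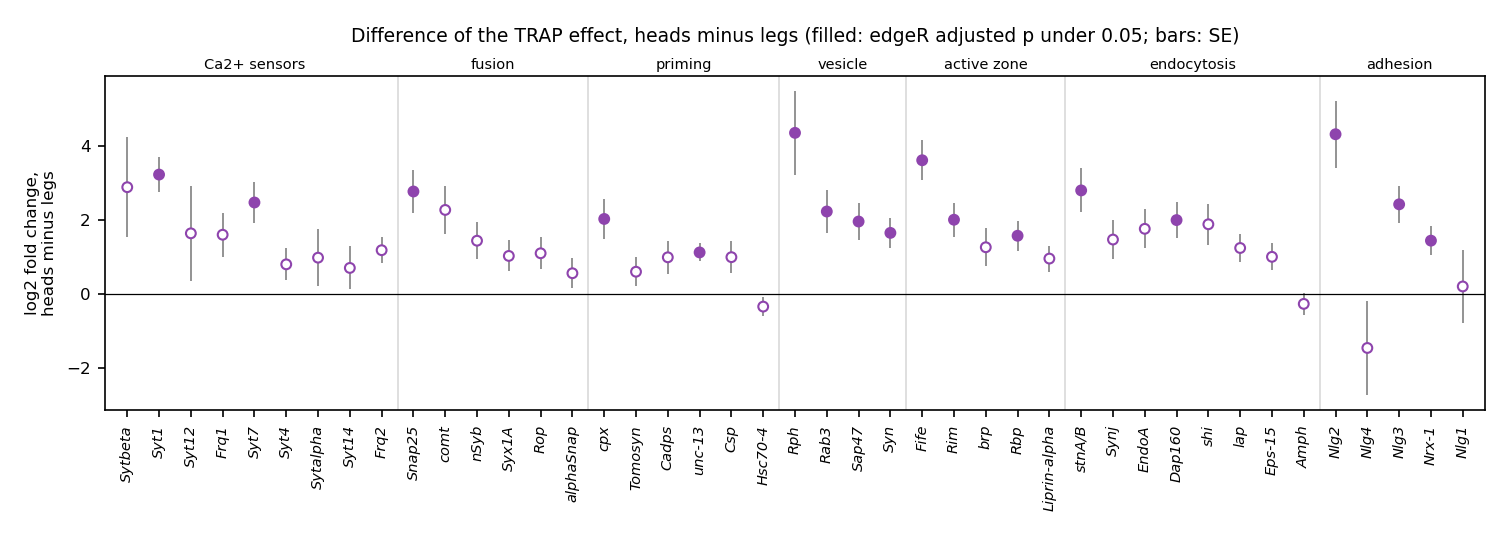
Difference in log2 fold change between heads and legs for each member, with bars of 1 SE. Filled points passed an adjusted p of 0.05 for the interaction. The 17 filled points all lie to the side of a larger effect in heads.

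The number of members passing this test depended on single libraries, and so did the number of all genes passing, whose range is given with the processing settings below. For members it was 2 without head control 1, 7 without head TRAP 2, 8 without head control 2 and 9 without head control 3. It was 10 without leg TRAP 1, 11 without head TRAP 1 and 33 without head TRAP 3. No count is given for fits that leave a single leg control, and those without leg TRAP 2 or leg TRAP 3 are not listed. The number of all genes passing is not set beside each of these counts. They therefore show only how far the calls depended on single libraries. Fife and Syt1 passed under each of the 16 alternatives tried. Since each tissue carries a batch number of its own in the labels, tissue and batch cannot be told apart, and heads came from males only.

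The same test between larvae and legs, which differ in driver and stage as well as tissue, called 0 of 43 members in either direction in edgeR (0.0119% and 0.00597% of all genes), with 0 at an unadjusted p under 0.05 and a smallest adjusted p of 0.948. DESeq2 called 0 too.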

How the data were processed

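RNA bound to Flag-GFP-RpL10 ribosomes was measured in 17 samples, 6 of heads, 6 of larval axonal sections and 5 of legs, grouped by the tissue and genotype in their labels. The authors deposited raw counts per gene, whole numbers without scaling. Per the submitters' notes and methods, reads were trimmed with Trim Galore, aligned with HISAT2 2.2.1 to BDGP6, handled with SAMtools 1.12 and counted in SeqMonk. Whether reads or pairs were counted, the strand setting and the use of introns are not given in the sources used here. Of the 44 members, 25 overlap another annotated gene (9 on the same strand and 18 on the other), so reads of overlapping genes could not be told apart. Coordinates are those in the deposited tables, and 16755 of the 16977 genes had the same coordinates in the BDGP6 reference.

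Within each tissue, every gene with at least 1 count in 1 sample was fitted with edgeR 4.0.16 (TMM, trended dispersion, two-sided quasi-likelihood F-test) under R 4.3.3, and differences between tissues as an interaction in a model of 2 tissues. P-values were adjusted over all genes tested. The SE was derived from the F statistic. The model was tested on simulated data with 200 changed genes, drawn from those with a mean of at least 10 CPM. With edgeR, log2 changes of 1 were recovered for 36.9% of such genes in heads, 1.03% in larvae and 31% in legs. Log2 changes of 2 were recovered for 96.6%, 23.3% and 93%, and for 69.5% in the interaction of heads and legs. A lack of calls in larvae therefore does not show that members were unchanged. Alternatives were DESeq2 1.42.0, other scaling factors, filters on low counts, a stricter threshold of 0.01, 1 model of all 3 tissues, a replicate block and leaving out each sample in turn.

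The members and gene lists were chosen with earlier results of these data known. The rule gave full values to the members with the largest and the smallest head change in each role (mean of at least 10 CPM), to those called in larvae, legs or an interaction, and to the 3 smallest p-values in larvae and in legs. Further members were given in full after their values had been seen. At most 3 called genes of each other list were named, by size of change. The ratios to pan-neuronal markers and between gene pairs were chosen after the values had been seen. Reads carry no molecular identifiers. No promoter, protein or transcript sequence was used here.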

Additional observations from a re-analysis of the deposited data

Results flagged for a closer look

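For 17 members the TRAP effect was larger in heads than in legs by the interaction test, and the difference in log2 fold change is given for each (edgeR, adjusted over all genes). In the calcium sensors it was 3.23 for Syt1 (adjusted p = 0.00901) and 2.47 for Syt7 (adjusted p = 0.0216). Among the fusion and priming genes it was 2.77 for Snap25 (adjusted p = 0.0187), 1.124 for unc-13 (adjusted p = 0.0190) and 2.03 for cpx (adjusted p = 0.0393). The vesicle genes gave 1.65 for Syn (adjusted p = 0.0340), 2.23 for Rab3 (adjusted p = 0.0358), 4.35 for Rph (adjusted p = 0.0389) and 1.96 for Sap47 (adjusted p = 0.0366). For Rph the leg samples held 2 to 104 counts each. The scaffold genes gave 2.01 for Rim (adjusted p = 0.0251), 1.57 for Rbp (adjusted p = 0.0355) and 3.61 for Fife (adjusted p = 0.00992). In endocytosis the differences were 2.80 for stnA (adjusted p = 0.0187) and 2.00 for Dap160 (adjusted p = 0.0326), and among the adhesion genes 1.44 for Nrx-1 (adjusted p = 0.0413), 4.31 for Nlg2 (adjusted p = 0.0174) and 2.42 for Nlg3 (adjusted p = 0.0171). The 17 members were higher in heads, and in legs none of them passed the edgeR test between genotypes. With DESeq2, Syt7 was called lower in legs. Tissue, the batch number in the labels and the sex of the flies cannot be told apart in this difference.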

How the results depend on the processing

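In heads, against 35 members (7.23% of all genes higher), DESeq2 called 38 (12.1% of all genes), scaling by library size alone 40 (17.5%), the replicate block 35 (8.45%), a threshold of 0.01 21 and the single model of 3 tissues 0. Leaving out 1 library gave 22 to 40 (22 without control 1, 23 without control 2, 40 without TRAP 3, where Amph was called lower). In these 3 fits 4.23%, 5.12% and 10.5% of all genes were higher. The 2768 genes called in heads became 1422 at 0.01, 191 in the single model and 1552 to 3692 without 1 library. Library-size scaling raised the median of all genes in heads by 0.49 on the log2 scale, and the members' median lay 1.27 above it there and 1.33 above it with TMM. Hsc70-4 in heads then changed sign, from −0.21 to 0.27, neither past the threshold.

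In larvae 0 members passed, except 1 (Amph, lower) in the single model. The 41 genes called became 203 with DESeq2, 16 with library size, 2 and 0 with the stricter count filters, 384 in the single model, 23 at 0.01 and 19 to 181 without 1 library. In legs 0 members passed except 2 with DESeq2. The 33 genes called became 574 with DESeq2, 5 and 15 with the filters, 19 with the replicate block, 3 in the single model, 10 at 0.01 and 1 to 149 without 1 library. The log2 ratio of summed leg levels moved from −0.0051 to −0.085 without Hsc70-4, shi and alphaSnap.

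For heads against legs, 17 members became 31 with DESeq2, 32 with library size and 2 to 33 without 1 library, and 1142 genes became 2049 with DESeq2 and 99 to 1742 without 1 library (425 higher and 717 lower in heads, but 1099 and 66 with library size and 525 and 347 with relative log expression factors). For larvae against legs, 0 members passed throughout, and 3 genes became 106 with DESeq2, 0 with library size, 0 with at least 1 count in every sample and 2 to 14 without 1 library. The causes were not tested. Whether replicate numbers pair the samples was not settled, and the main fits used no pairing. Same-numbered head samples deviated with correlations of 0.082 to 0.282, and differently numbered ones with −0.293 to 0.211. In larvae the ranges were −0.513 to −0.004 and −0.388 to 0.471. Under the replicate block the members' median was 1.47 in heads and 0.07 in larvae, against 0.29 and −0.11 for all genes. The smallest adjusted p of a member in heads was 4.37e-06 under that block and 0.00116 in the main fit, both in edgeR. Low member counts limit chiefly the larval samples TRAP 2 and control 1, where 8 and 7 members had 3 counts or fewer. Their totals, 55654887 and 71688344 counts, were not low.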
